A study of Mus musculus with 2 samples.

Results

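The genes of antigen presentation on MHC class II were followed through the cell types of mouse bone marrow. The 7 members are H2-Aa, H2-Ab1, H2-Eb1, H2-DMa, H2-DMb1, Cd74 and Ciita, listed by name with earlier results of these data known, and all 7 were found among the 32285 genes of the count tables. Femoral marrow was flushed for 1 WT and 1 DKO library of single cells. WT stands for the Ddx41 fl/fl littermate control that lacked VavCre and had wild-type cGas. DKO stands for VavCre:Ddx41 fl/fl, cGAS-/-. The mice were 2 months old, and the number of mice per library is not given in the sources used. Every captured transcript was counted once by its unique molecular identifier (UMI). VavCre acts in blood-forming cells, and the study names endothelial cells and oocytes as further sites of its expression. As each genotype had only 1 library, variation from mouse to mouse is unknown. No test was therefore made, the values of the libraries are given side by side, and the 95% intervals reflect the error of counting and nothing else.

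MHC class II molecules carry peptides from ingested or membrane proteins to the cell surface, where CD4+ T cells read them. H2-Aa and H2-Ab1 encode the alpha and beta chains of I-A, and H2-Eb1 encodes the beta chain of I-E. Cd74, the invariant chain, fills the peptide groove during transport, and the H2-DM heterodimer of H2-DMa and H2-DMb1 exchanges its remnant for peptide in endosomes. Ciita is the coactivator that switches this gene set on, through a group of factors bound at conserved X and Y boxes of the promoters. B cells, dendritic cells and activated macrophages are known as the professional presenting cells.

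The 5 H2 members lie within 1 stretch of chromosome 17 of GRCm38, from 34119541 to 34316674, and Ciita lies on chromosome 16 from 10480059 to 10528418 (GENCODE M21). Promoter sequences of RefSeq (GRCm38.p6, 250 bases before to 50 after a start) are described for 4 members. None was held for H2-Ab1 and Ciita, and Cd74 is not reported here. A pair of short motifs was searched on both strands, an X motif written CTNGNAACT and a Y motif written TGATTGG, both spelled after the promoters had been read. The X motif occurred in 4.10% and the Y motif in 7.82% of all 32851 promoters. An X motif followed after 10 to 40 bases by a Y motif occurred in 5 promoters (0.0152%), which were those of H2-Aa, H2-Eb1, H2-DMb1 and of 1700048F04Rik and BC051142. The windows of these 3 members are shown because they hold the sequence that Ciita-dependent factors are known to read, with both motifs in capitals and 15 bases on either side.
H2-Aa: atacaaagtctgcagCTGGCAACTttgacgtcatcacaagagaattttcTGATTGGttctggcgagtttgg
H2-Eb1: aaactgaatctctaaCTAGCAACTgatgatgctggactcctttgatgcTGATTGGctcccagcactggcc
H2-DMb1: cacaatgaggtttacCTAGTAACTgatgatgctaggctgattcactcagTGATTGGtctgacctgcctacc
The H2-Aa window lies on the minus strand at chr17:34287852-34287922, the H2-Eb1 window on the plus strand at chr17:34305758-34305827 and the H2-DMb1 window on the plus strand at chr17:34153079-34153149. The motifs were 25, 24 and 25 bases apart, and the Y motif ended 43, 54 and 56 bases before the RefSeq start. Neither motif was found in the promoters listed for H2-DMa. Of the class II genes outside the members, 4 had a promoter entry (H2-Oa, H2-Ob, H2-DMb2 and H2-Eb2). All 4 held the Y motif, and 0 held the X motif followed by it. As the motifs were spelled after the promoters had been read, the shares are a description and no measure of rarity.

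After filtering, 18645 WT cells with 118408790 UMIs and 13697 DKO cells with 114345414 UMIs were kept (median 4862 and 6899 UMIs per cell), and 75 cell barcodes occurred in both libraries. The cells formed 46 clusters without use of the members. Marker genes gave them to 19 classes, and 3 clusters stayed unnamed. The targeted gene Ddx41 had 20.2 CPM (UMIs scaled to 1e6 UMIs) in the WT and 8.0 CPM in the DKO library, and Cgas had 13.6 and 7.23 CPM, so transcripts of both targeted genes were still counted in the DKO library. Free RNA was read from 1125245 WT droplets of at most 100 UMIs, in which the 7 members together had 853 CPM. The DKO table held called cells only, so its free RNA was not measured. In the text a difference between libraries is named as called where it was at least 1.5-fold and its interval left out 0 on the log2 scale.

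In both libraries the members were concentrated in dendritic and mature B cells. Over all cells they had 152205 UMIs (1285 CPM) in the WT and 94986 UMIs (831 CPM) in the DKO library. Mature B-like cells held 46.0% of the WT and 51.7% of the DKO member UMIs, and conventional dendritic-like cells, with 196 and 87 cells, held 24.0% and 19.5%. Conventional dendritic-like cells had the highest level, 25302 CPM in WT and 17236 CPM in DKO cells. Mature B-like cells followed with 15641 and 12779 CPM. Scaled by the hemoglobin counted in a class, free RNA would supply 477 of the 36560 WT member UMIs of the former and 2232 of the 70058 of the latter. Plasmacytoid dendritic-like cells (5044 and 4148 CPM), macrophage-like cells (3649 and 4162 CPM) and plasma cell-like cells (3513 and 4181 CPM) came next. These 3 classes were apart in the WT library except for macrophage- and plasma cell-like cells, whose intervals overlapped (3573 to 3726 and 3381 to 3649 CPM). In the DKO library the intervals of all 3 overlapped. Late erythroid-like cells were lowest, at 32.4 and 11.5 CPM.

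**Figure D1:**
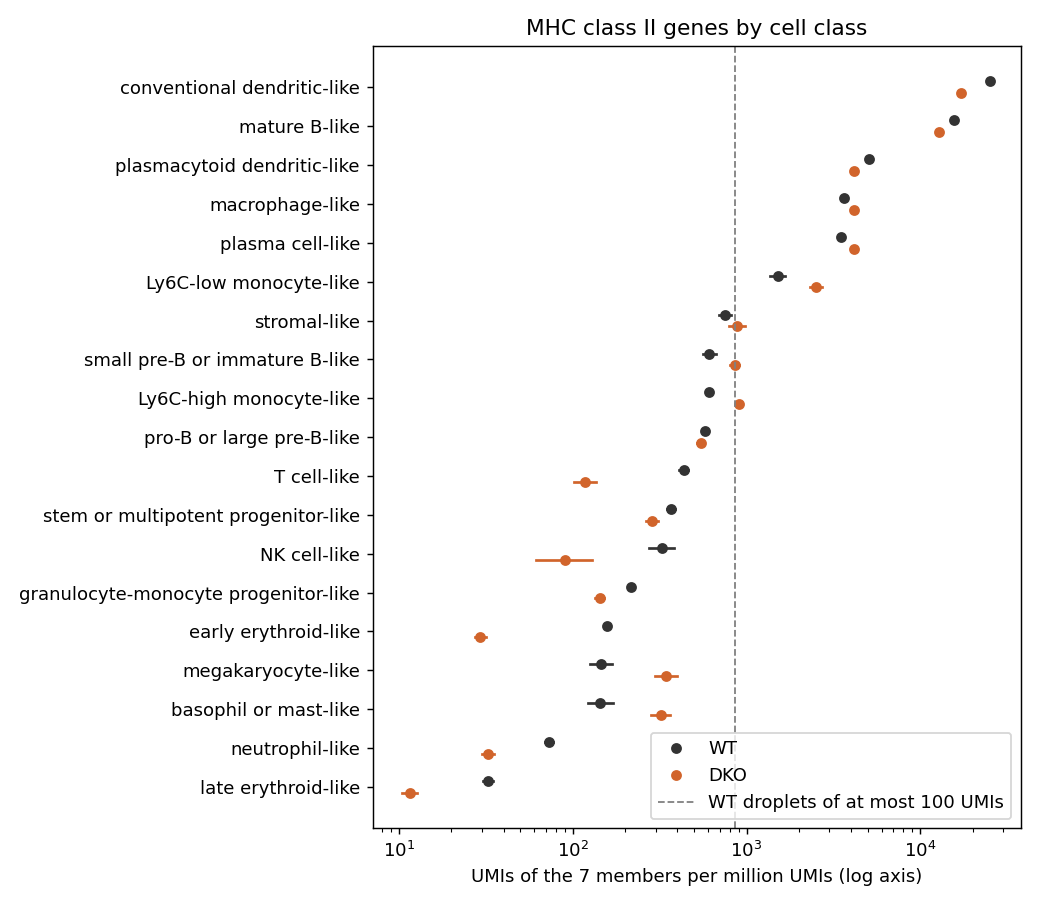
Summed CPM of the 7 members (x, log axis) in each named cell class (y), with WT in grey and DKO in orange. Points are single libraries, bars are Poisson intervals for counting error, and the dashed line is the level in WT droplets of at most 100 UMIs (853 CPM). Conventional dendritic-like cells lead in both libraries and late erythroid-like cells are lowest.

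Members were also unevenly spread over the cells of a class. At least 1% of a cell's UMIs came from the 7 members in 78.8% of WT and 73.4% of DKO mature B-like cells and in 67.9% and 62.1% of conventional dendritic-like cells. In plasmacytoid dendritic-like cells the share was 22.5% and 16.3%, and in macrophage-like cells 9.89% and 12.3%. When every cell was thinned to 2000 UMIs, which left out shallower cells, H2-Aa, H2-Ab1, H2-Eb1 and Cd74 were all found together in 973 of 1140 WT (85.4%) and 707 of 885 DKO (79.9%) mature B-like cells. The same was true of 137 of 188 WT (72.9%) and 54 of 84 DKO (64.3%) conventional dendritic-like cells. No late erythroid-like cell held all 4, among 5086 WT and 3955 DKO cells, a class that should lack them. In other classes that should lack them the share was 5.5% and 2.38% in stromal-like, 1.63% and 0.417% in T cell-like and 0.857% and 0.135% in early erythroid-like cells of the WT and DKO libraries. In late erythroid-like cells Cd74 had 12.3 CPM in the WT and 5.03 CPM in the DKO library.

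**Figure D2:**
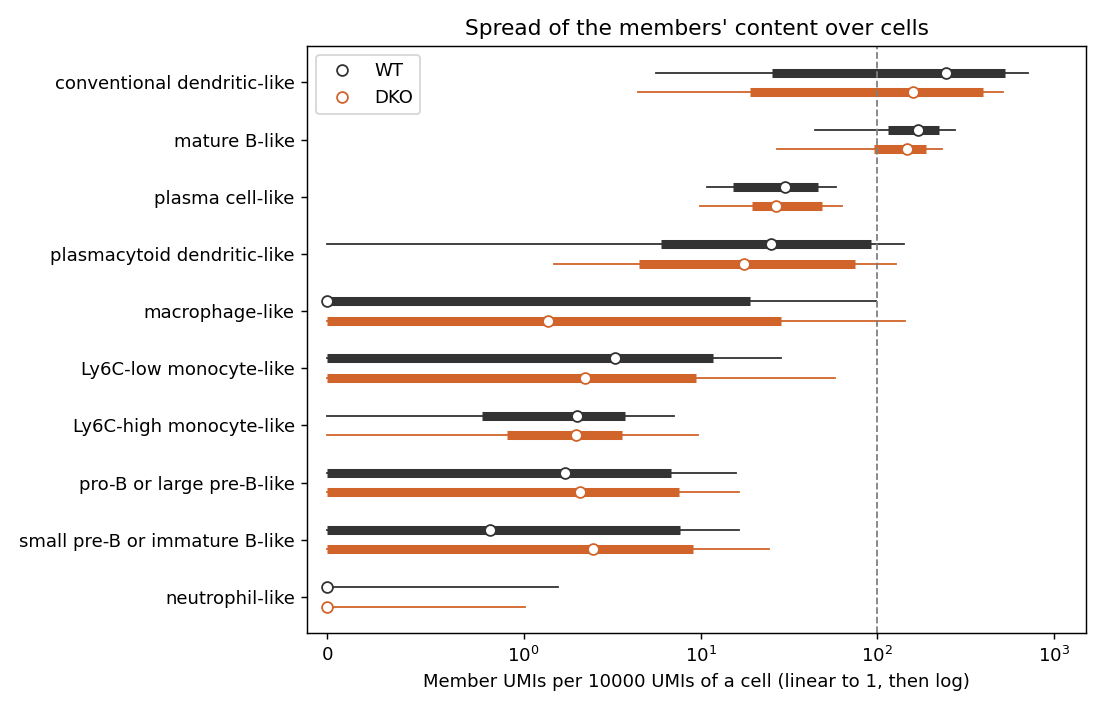
Member UMIs per 10000 UMIs of a cell (x, linear to 1 and then log) for 10 classes (y). Circles are medians over cells, thick bars span the 25th to 75th and thin lines the 10th to 90th percentile, and the dashed line marks 1% of UMIs. Conventional dendritic-like cells reach from 5.61 at the 10th to 709 at the 90th percentile in the WT library, a wider span than the mature B-like cells (44.5 to 276).

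Along the B lineage the members were low in precursors and high in mature cells. B cells are known to gain surface class II during maturation in the marrow and to lose it on becoming plasma cells. Pro-B or large pre-B-like cells had 579 CPM of the 7 members in the WT and 545 CPM in the DKO library, and small pre-B or immature B-like cells had 611 and 854 CPM. Scaled by hemoglobin as above, free RNA would supply 44.4 of the 530 WT and 130 of the 1116 DKO member UMIs of the latter class, with the WT free RNA used for both libraries. Within the mature B-like class, cluster 40, led by Ms4a1, Klhl14, Ly6d and Spib, had 8169 and 6083 CPM. Clusters 13 and 14, led by Ighd, Fcer2a, Fcmr and Bank1, had 17498 and 17079 CPM in the WT library and 12391 and 15053 CPM in the DKO library. Hemoglobin was 18.6% of the WT and 36.3% of the DKO UMIs of cluster 13, against 2.30% and 1.87% in cluster 14. The nuclear RNA Malat1 was at 5304 and 3599 CPM in cluster 13 and at 14891 and 12531 CPM in cluster 14. The part of either in the order of these 2 clusters, for the sum or for single members, was not tested. Ciita, the coactivator, had 9.08, 15, 64.7, 135 and 243 WT CPM and 13.7, 14.5, 32.0, 108 and 215 DKO CPM in pro-B or large pre-B-like cells, small pre-B or immature B-like cells and clusters 40, 13 and 14. It was higher in cluster 14 than in cluster 13 in both libraries, whereas the WT sum of the 7 members was slightly lower there. The intervals of the 2 precursor classes overlapped for Ciita in each library.

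The members did not move in step along this lineage. Cd74, on chromosome 18 from 60803848 to 60812652, was at 5233 CPM in cluster 40 and at 8509 CPM in cluster 13 of the WT library, whereas H2-Aa was at 1048 and 3709 CPM. In the DKO library Cd74 was at 4331 and 6235 CPM and H2-Aa at 637 and 2594 CPM. H2-Ab1 stood out in the earliest cells. It made up 26.9% of the member UMIs of WT and 27.9% of DKO pro-B or large pre-B-like cells, against 12.0% and 12.3% in mature B-like cells and 13.9% in free RNA. H2-Ab1 was at 156 CPM (143 to 169) in WT and 152 CPM (140 to 165) in DKO pro-B or large pre-B-like cells. Droplets of free RNA alone held 119 CPM.

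Plasma cell-like cells, with 40 WT and 53 DKO cells, kept Cd74, and the other members were far below it. Cd74 had 3245 CPM in the WT and 3985 CPM in the DKO library and was 92.4% and 95.3% of the member UMIs. H2-Ab1 had 139 and 92.3 CPM, H2-Eb1 67.1 and 51.4 CPM and H2-Aa 40.8 and 44.4 CPM. H2-DMa had 14.5 and 7.01 CPM, and H2-DMb1 had 6.57 and 1.17 CPM. Droplets of free RNA alone had 182 CPM of H2-Aa, which is not the amount that free RNA adds to a cell. Hemoglobin was 0.454% of the WT and 0.834% of the DKO UMIs of these cells, against 145096 CPM in those droplets. The part of free RNA in H2-Aa was not tested. No Ciita UMI was found in either library, and the interval reached up to 4.85 CPM in the WT and 4.31 CPM in the DKO library. Pax5, a B cell factor that plasma cells are known to switch off, had 3 and 8 UMIs in these cells. In mature B-like cells Ciita had 169 and 158 CPM and Cd74 made up 48.3% and 49.6% of the members. Plasma cell-like cells were not compared between libraries, since the WT library had fewer than 50 of them.

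**Figure D3:**
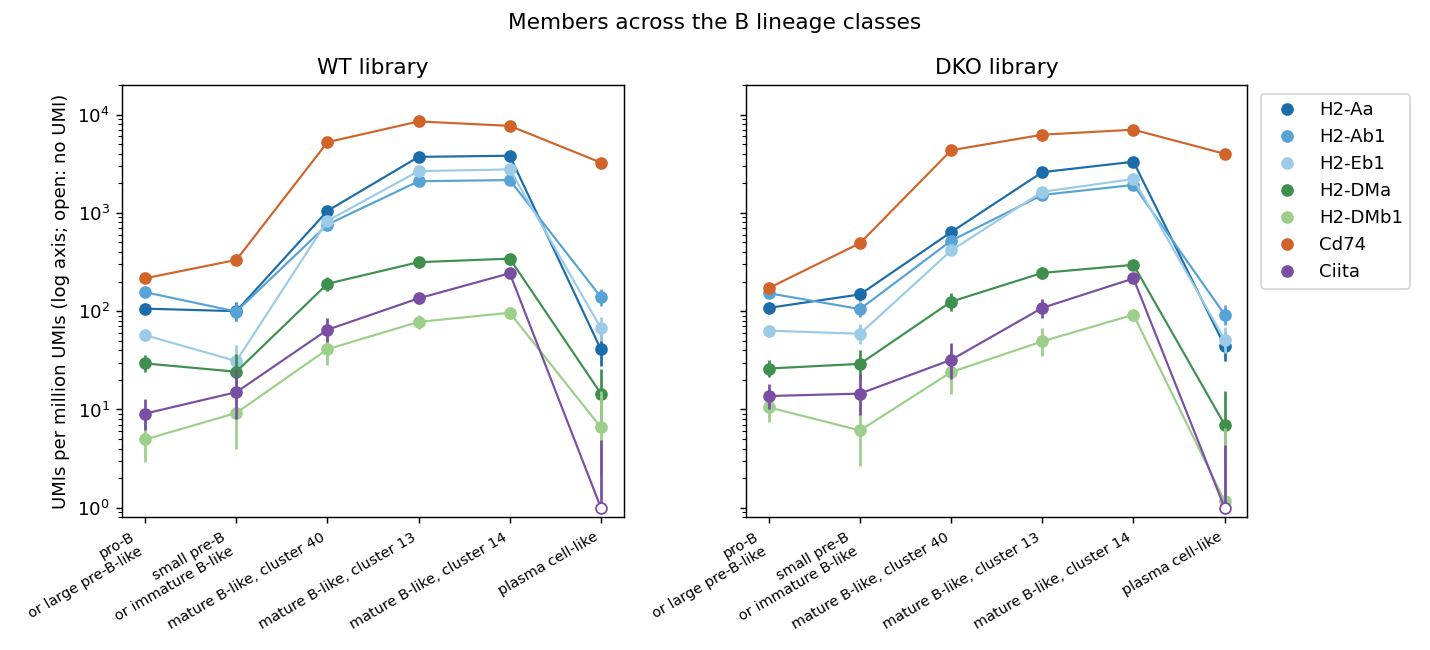
Level of each member (y, CPM on a log axis) in B lineage classes, with the clusters of the mature B-like class shown by number (x), in the WT (left) and DKO library (right). Points are single libraries with Poisson intervals, and open points at the bottom mark classes with no UMI. Cd74 stays at 3245 CPM in WT plasma cell-like cells while Ciita has no UMI there.

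Conventional dendritic-like cells had the highest level of every member in the WT library except Ciita, which was at 152 CPM there and at 169 CPM in mature B-like cells, with overlapping intervals (132 to 173 and 157 to 182 CPM). In the DKO library Ciita was at 199 CPM in conventional dendritic-like and 158 CPM in mature B-like cells. The class carried 652 WT and 420 DKO UMIs of Cd209a, 114 and 87 of Batf3, 278 and 411 of Wdfy4, 53 and 69 of Clec9a and 4 and 8 of Xcr1. Its median cell held 243 member UMIs per 10000 in the WT and 158 in the DKO library. The 25th percentile lay at 25.4 and 19.1. The 63 WT and 33 DKO cells under 1% of member UMIs had less Cd209a (168 and 131 CPM) than the 133 and 54 cells above it (646 and 647 CPM). Zbtb46, another marker of the class, was at 56.1 and 84.1 CPM in the former and 47.9 and 64.7 CPM in the latter. The cells under 1% had more of the dendritic progenitor factor Irf8 (1013 and 1291 against 403 and 543 CPM), of the proliferation marker Mki67 (343 and 488 against 148 and 198 CPM) and of Ly6c2 (1031 and 676 against 461 and 59.1 CPM). Ciita was at 22.1 and 52.3 CPM in the cells under 1% and at 241 and 344 CPM in the others. These cells were split by the members themselves, so the values are a description.

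Plasmacytoid dendritic-like cells differed from the conventional class in the make-up of their members. H2-Eb1 was 9.78% of the members in the WT and 8.44% in the DKO library, against 18.3% and 15.3% in conventional dendritic-like cells. H2-DMa was 7.20% and 6.98%, against 2.49% and 2.96%. Ciita was low, with 24.6 CPM in the WT and 44.9 CPM in the DKO library. The 105 WT and 23 DKO cells with at least 1% of member UMIs had more Klk1 (1066 and 1274 CPM) than the remaining 362 and 118 cells (185 and 135 CPM) and less Mki67 (27.4 and 18.4 against 167 and 183 CPM). Siglech, which marks the class, was at 1818 and 2045 CPM in the former and at 1281 and 1523 CPM in the latter. The markers Tcf4 (3184 and 3692 against 3349 and 4314 CPM) and Runx2 (1679 and 1561 against 2364 and 2781 CPM) were lower in the former. The remaining markers of the class were higher there. These cells too were split by the members themselves, so the values are a description.

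Macrophage-like cells fell into clusters with very different member levels. Cluster 38, led by Mertk, Frmd4b and Dgki, had 9143 CPM in the WT and 9489 CPM in the DKO library. Cluster 22, led by C1qa, C1qc and C1qb, had 4216 and 6786 CPM, from cells with a median of only 780 and 747 UMIs. Cluster 25, led by Hmox1, C1qb and Fabp4, had 367 and 315 CPM, and 80.7% and 81.3% of its UMIs were hemoglobin. In the class as a whole, 81 WT cells (9.89%) and 54 DKO cells (12.3%) with at least 1% of member UMIs held 83.2% and 81.4% of the member UMIs. The macrophage markers differed in direction between those cells and the rest. Cd5l had 3 UMIs in them in each library, and Slc40a1, an iron exporter, was at 314 and 515 CPM against 845 and 869 CPM in the other cells. The complement gene C1qa (4323 and 3257 against 1251 and 721 CPM) and Adgre1, a macrophage surface receptor (418 and 541 against 132 and 166 CPM), were higher in them. Mrc1 was at 481 and 1161 against 466 and 485 CPM, and Vcam1 at 1061 and 1607 against 1232 and 998 CPM. Hemoglobin was 46.2% of the WT and 47.6% of the DKO UMIs of the class and counts in these CPM. Its part in the marker differences was not tested. These cells were also split by the members themselves, so the values are a description.

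In Ly6C-high monocyte-like cells a few cells stood far above the rest. A UMI of any member was found in 78.7% of WT and 83.3% of DKO cells, and of H2-DMa in 65.1% and 70.6%. Only 11 of 973 WT and 13 of 496 DKO cells reached 1% of member UMIs, and they held 32.3% and 56.7% of the member UMIs of the class. Cd74 was at 13078 and 11791 CPM in these cells and at 130 and 151 CPM in the others. Their monocyte markers summed to 4014 and 4764 CPM, against 8473 and 8891 CPM in the others. Ly6c2 (239 and 226 against 1949 and 1573 CPM), F13a1 (239 and 915 against 2114 and 2756 CPM) and Fn1 (207 and 661 against 1857 and 2227 CPM) were lower in them. Ccr2 (1354 and 1603 against 1024 and 1092 CPM) and Csf1r (494 and 344 against 141 and 200 CPM) were higher. Ms4a6c was at 1481 and 1014 against 1387 and 1043 CPM. The conventional dendritic marker list summed to 589 and 661 CPM in them and to 152 and 173 CPM in the other cells, with 3 and 2 of its 8 genes at 0. Here too the split was made by the members themselves, so the values are a description. Ly6C-low monocyte-like cells had 1512 CPM from 75 WT cells and 2518 CPM from 49 DKO cells. With fewer than 50 DKO cells they were not compared.

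H2-DMa and H2-DMb1 made up over 50% of the member UMIs of granulocyte-monocyte progenitor-like cells. H2-DMa had 94.9 CPM (90.2 to 99.8) in the WT and 83.8 CPM (77.8 to 90.2) in the DKO library, and H2-DMb1 had 30.5 and 34.0 CPM. These genes made up 44.0% and 14.1% of the WT and 58.7% and 23.8% of the DKO member UMIs of the class, against 5.09% and 2.13% in free RNA. Cd74 had 42.5 CPM in the WT and 5.79 CPM in the DKO library, H2-Ab1 18.1 and 13.1 CPM, H2-Aa 17.6 and 3.71 CPM, and Ciita 0.740 and 0.579 CPM. In thinned cells H2-DMa was found in 18.0% of WT and 12.8% of DKO progenitors, and H2-Aa in 1.94% and 0.355%. In stem or multipotent progenitor-like cells H2-DMa was at 124 and 86.4 CPM, 33.7% and 30.1% of the members, while H2-DMb1 was at 21.3 and 18.2 CPM, 5.78% and 6.32%. Cd74 was at 91.5 and 82.0 CPM and H2-Ab1 at 55.8 and 51.0 CPM there. In Ly6C-high monocyte-like cells H2-DMa was at 142 and 133 CPM, 23.4% and 14.7% of the members.

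**Figure D4:**
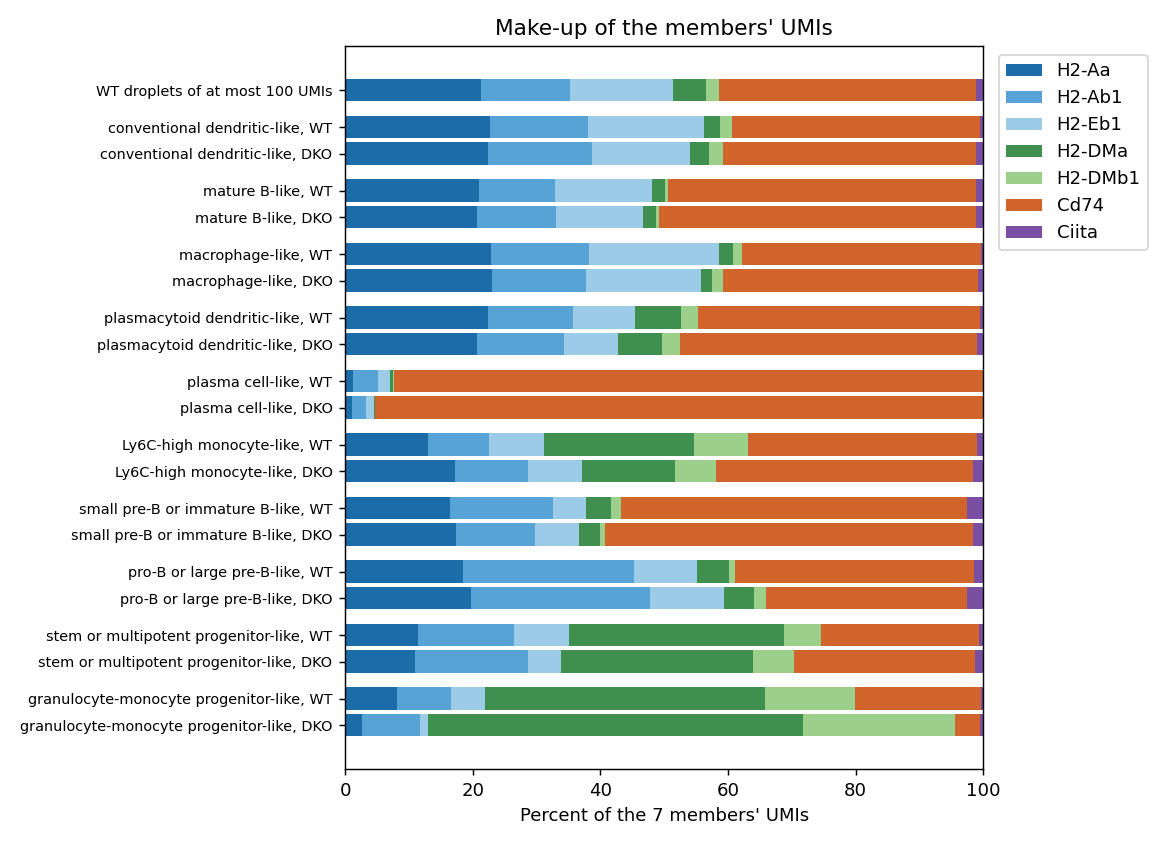
Share of each member in the summed UMIs of the 7 members (x, percent) for 10 classes in each library and for WT droplets of at most 100 UMIs (y). H2-DMa and H2-DMb1 fill over 50% of the bars of granulocyte-monocyte progenitor-like cells, and Cd74 fills over 90% of those of plasma cell-like cells.

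The likeness of gene patterns was read from the log2 levels of 38 class and library pairs, as a description over points that share libraries. H2-Aa, H2-Ab1 and H2-Eb1 ran together (Pearson r = 0.97 to 0.99), as did H2-DMa with H2-DMb1 (r = 0.93), while H2-DMa and Cd74 were less alike (r = 0.61). Of 11534 genes, those most like the H2-DM pair were Pkib, Fgd2, Irf8, Calhm2 and Bmyc (r = 0.86 to 0.88). Those most like the mean of H2-Aa, H2-Ab1, H2-Eb1 and Cd74 were Rab39, Cd180, Ctss, Lgmn and Cd40 (r = 0.79 to 0.81). Those most like Ciita were Rab39, Cd40, Kynu, Cd180 and Ly86 (r = 0.78 to 0.90).

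Between the libraries, mature B-like cells had lower levels of all 7 members in the DKO library, and none of these differences was large enough to be called. The sum of the 7 had a log2 ratio of DKO over WT of -0.29 (interval -0.31 to -0.27). H2-Eb1, at 2377 CPM in the WT and 1746 CPM in the DKO library, had the lowest ratio (-0.45, interval -0.49 to -0.40), and Ciita, at 169 and 158 CPM, the highest (-0.10, interval -0.26 to 0.06). Among all 5969 genes tested in this class, 5.14% were called higher and 2.58% called lower. The median ratio was -0.26 over the members and 0.12 over all genes. The sum was lower in each cluster, by -0.50 in cluster 13, -0.18 in cluster 14 and -0.43 in cluster 40 (log2 ratios). Malat1, a nuclear RNA read as a sign of RNA quality, had log2 ratios of -0.56, -0.25 and -0.08 in these clusters. Hemoglobin was 18.6% of the WT and 36.3% of the DKO UMIs in cluster 13. The part of either in the ratios was not tested.

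Conventional dendritic-like cells had lower levels of 6 members and a higher level of Ciita in the DKO library. The ratio of the summed members was -0.55 (interval -0.58 to -0.53). H2-Eb1 was called lower, from 4633 to 2630 CPM (log2 ratio -0.82, interval -0.88 to -0.75). H2-Aa went from 5731 to 3869 CPM (-0.57), Cd74 from 9809 to 6835 CPM (-0.52) and H2-Ab1 from 3871 to 2813 CPM (-0.46), short of the 1.5-fold limit. Ciita was at 152 CPM in the WT and 199 CPM in the DKO library (0.39, interval 0.11 to 0.67). Of 6132 genes in this class, 12.9% were called higher and 4.40% lower, so 1 of 7 members called lower stands beside a background of 4.40%. The median over the members was -0.46, against 0.14 over all genes. Cells under 1% of member UMIs had 2105 CPM in the WT and 2263 CPM in the DKO library. The class rests on 87 DKO cells, and its mature B markers summed to 60.9 and 30.7 CPM, with 0 and 3 of the 7 markers at 0. Ly6C-high monocyte markers summed to 3411 CPM in the WT and 2980 CPM in the DKO cells of the class. Its own conventional dendritic markers summed to 983 and 1217 CPM. The part of monocyte-like content in the ratios was not tested.

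Plasmacytoid dendritic-like cells also had 6 members lower and Ciita higher in the DKO library. Summed, the members had a ratio of -0.28 (interval -0.33 to -0.23), and the ratios of the 6 ran from -0.49 for H2-Eb1 to -0.20 for H2-DMb1. Ciita was called higher, with 65 WT and 52 DKO UMIs (24.6 and 44.9 CPM, log2 ratio 0.88, interval 0.32 to 1.42). Of 6500 genes, 9.25% were called higher and 3.72% lower. Mature B markers summed to 93.7 CPM in the WT and 159 CPM in the DKO library, with none of the 7 at 0 in either, and their part in the Ciita difference was not tested. The median was -0.26 over the members and 0.13 over all genes.

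In the small pre-B or immature B-like class the sum was higher in the DKO library (log2 ratio 0.48, interval 0.33 to 0.64), from 530 WT and 1116 DKO UMIs. Hemoglobin was at 8709 CPM in the WT and 16956 CPM in the DKO library, and Malat1 had a ratio of -0.39, and their part in the difference was not tested. H2-Eb1 was called higher (27 and 77 UMIs, log2 ratio 0.89, interval 0.27 to 1.61). The background was 3.26% of 6192 genes called higher and 4.49% called lower. The ratio turned to -0.49 when clusters were drawn at a coarser Leiden resolution of 1.0. The direction in this class thus depended on the clustering.

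Macrophage-like cells had a sum slightly higher in the DKO library (log2 ratio 0.19, interval 0.14 to 0.24), which turned to -0.33 once barcodes under a UMI limit set by the deepest barcodes were dropped. By cluster the ratio was 0.69 in cluster 22, 0.05 in cluster 38 and -0.22 in cluster 25. In cluster 22 Malat1 was at 1306 CPM in the WT and 281 CPM in the DKO library (log2 ratio -2.19), and its part in that cluster's ratio was not tested. Ciita was called higher, from 32 WT and 43 DKO UMIs (13.3 and 35.4 CPM, log2 ratio 1.40, interval 0.72 to 2.12). Most of these UMIs, 25 and 38, came from cluster 38. Of 4373 genes, 6.72% were called higher and 6.47% lower. The mature B markers summed to 72.8 CPM in the WT and 29.6 CPM in the DKO library, with 0 and 1 of the 7 at 0, and their part in the Ciita difference was not tested.

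Ly6C-high monocyte-like cells had 4 members called higher in the DKO library, H2-Aa (78.6 and 155 CPM), H2-Ab1 (57.9 and 104 CPM), Cd74 (217 and 364 CPM) and Ciita (6.77 and 14.5 CPM). The background was 4.15% of 6333 genes called higher and 1.97% called lower, and the ratio of the sum was 0.58 (interval 0.52 to 0.63). In the 962 WT and 483 DKO cells under 1% of member UMIs the sum was 413 CPM in the WT and 399 CPM in the DKO library. H2-DMa, found in 23.0% of WT and 25.1% of DKO thinned cells, was at 142 and 133 CPM (log2 ratio -0.09, interval -0.22 to 0.04). The clusters differed in direction, with a ratio of 0.70 in cluster 34 and -1.09 in cluster 32.

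**Figure D5:**
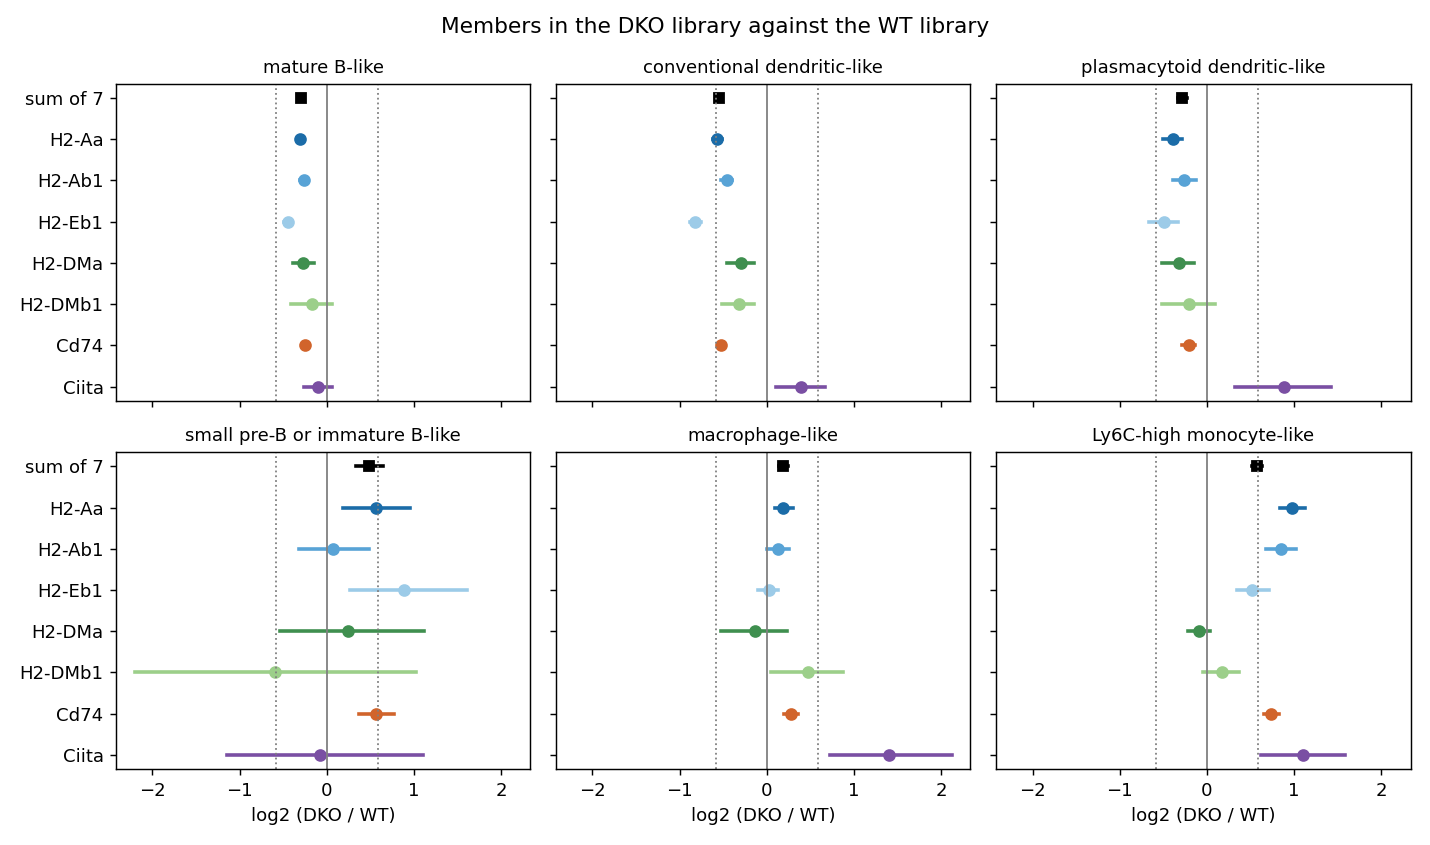
Log2 ratio of DKO over WT (x) for each member and for their sum (y) in 6 classes. Bars are counting intervals, the solid line marks no difference and the dotted lines mark 1.5-fold. In mature B-like cells all 7 members lie below 0, and in both dendritic classes 6 lie below 0 and Ciita above it.

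In classes that are not known to present on class II, the sum of the members stayed below the 853 CPM of droplets with free RNA alone. Stromal-like cells of the DKO library were apart from this (755 CPM in the WT and 882 CPM in the DKO library). That level is not the amount that free RNA adds to a cell. The sum was lower in the DKO library in T cell-like (434 and 117 CPM), NK cell-like (326 and 90.6 CPM) and early erythroid-like cells (158 and 29.3 CPM). The same held for late erythroid-like (32.4 and 11.5 CPM) and neutrophil-like cells (73.3 and 32.6 CPM). Of all genes, 31.2% were called lower in late erythroid-like cells. The share called lower was 5.21% in T cell-like, 4.96% in NK cell-like, 3.40% in early erythroid-like and 1.45% in neutrophil-like cells. Cd74 was at 180 CPM in WT and 39.1 CPM in DKO T cell-like cells, at 125 and 17.5 CPM in NK cell-like cells, at 70.9 and 10.8 CPM in early erythroid-like cells and at 29.5 and 11.1 CPM in neutrophil-like cells. The free RNA of the DKO library was not measured, so its part in these differences was not tested. H2-DMa was at 38.7 and 24.1 CPM in T cell-like, 43.0 and 46.7 CPM in NK cell-like, 8.44 and 3.68 CPM in early erythroid-like and 7.1 and 5.54 CPM in neutrophil-like cells. Megakaryocyte-like cells went the other way, with sums of 146 and 345 CPM (log2 ratio 1.24, interval 0.95 to 1.53). The ratios of all 7 members were above 0 there, with Cd74 at 56.1 and 157 CPM and Ciita at 0 and 4 UMIs. The 195 WT and 204 DKO member UMIs of this class came from few cells. These were 58 of 348 WT (16.7%) and 11 of 102 DKO cells (10.8%), and their part in the difference was not tested. The background was 9.47% of 5322 genes called higher and 8.91% called lower. Basophil or mast-like cells were also higher in the DKO library, with Cd74 at 29.8 and 126 CPM. In basophil or mast-like cells the mature B markers also went from 57.7 to 158 CPM, with 2 and 0 of the 7 at 0, and 2 of 64 thinned DKO cells held all 4 of H2-Aa, H2-Ab1, H2-Eb1 and Cd74. The part of B cell RNA in this difference was not tested.

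Of 31 other genes of the pathway, 30 were in the tables. They cover the remaining class II genes, lysosomal proteases, transcription factors, ubiquitin ligases and co-stimulatory receptors. In mature B-like cells 25 were high enough to compare, and 1, beside 5.14% of all genes, was called higher. This was Nfya, a subunit of the factor that binds the Y box (log2 ratio 0.83). The inhibitory H2-O chains, which hold H2-DM in check in B cells, had log2 ratios of -0.44 for H2-Oa (172 and 127 CPM) and -0.19 for H2-Ob (364 and 319 CPM). H2-DMb2, a close copy of H2-DMb1 with which it may share reads, had 351 and 270 CPM (-0.38). In conventional dendritic-like cells 3 of 24 were called higher, Creb1 (0.85), Nfya (0.76) and Nfyc (0.60), and 2 lower, H2-Oa (-1.14, from 88 and 29 UMIs) and Ctsd (-0.64), beside 12.9% and 4.40% of all genes. The protease Ctss, which trims the invariant chain, and the thiol reductase Ifi30 had log2 ratios of -0.43 and -0.46 there, without being called. In plasmacytoid dendritic-like cells H2-Oa alone was called, lower (-0.64, from 192 and 53 UMIs), among 19 genes, beside 3.72% of all genes. Creb1 (0.68) was called higher among 17 genes in macrophage-like cells (6.72% of all genes) and March1 (0.60), a ligase that removes class II from the surface, among 19 genes in Ly6C-high monocyte-like cells (4.15% of all genes). None of 20 was called in small pre-B or immature B-like cells. Higher levels of Creb1 and Nfya in the DKO library were not limited to presenting classes. Creb1 was higher in every class where it was compared. Its log2 ratio ran from 0.08 in small pre-B or immature B-like to 0.92 in NK cell-like and stromal-like cells. Nfya was at 0.55 in neutrophil-like and in granulocyte-monocyte progenitor-like cells. It was lower in megakaryocyte-like cells alone (-0.56). The median ratio of the list was 0.00 in mature B-like and 0.04 in conventional dendritic-like cells, against 0.12 and 0.14 over all genes.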

How the data were processed

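Femoral bone marrow was measured by droplet single-cell RNA-seq in 1 WT and 1 DKO library. The deposited values are raw UMI counts, which the authors made with Cell Ranger 7.1.0 per the file headers against mm10 per the labels, with all barcodes for WT and called cells for DKO. WT cells were called here by an order-of-magnitude threshold and a test of barcodes from 500 UMIs against the free RNA profile (false discovery rate 0.01). Cells over 20% mitochondrial UMIs were left out, as were 429 WT (2.25%) and 230 DKO (1.65%) doublets scored with Scrublet in scanpy 1.11.5, at a threshold of 0.194 in both libraries.

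Clusters were drawn with the igraph form of Leiden clustering in scanpy (2000 variable genes, none of them a member, 30 components, 15 neighbors, resolution 2.0). They were named from marker lists by the highest mean log2 fold, with at least 3 markers raised. A minimum mean log2 fold of 1 was added after a cluster led by Il1b had taken the Ly6C-low monocyte name, and 3 clusters stayed unnamed.

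For each class, the UMI counts of a library were added up, divided by the class total to give CPM, and set against each other as log2 DKO over WT, with 1 count added and an exact conditional binomial interval. Classes of at least 50 cells per library were compared. The background and the pathway list took genes of at least 20 CPM on average in the class, while the members were compared at any level. Levels have Poisson and shares Clopper-Pearson intervals. The script was tested on simulated data. The members and gene lists were chosen with earlier results of these data known. All 7 members are named, with up to 3 called pathway genes per class, the H2-O pair, H2-DMb2, Ctss and Ifi30, and the 5 genes most like each profile. Klk1, Mki67, Ly6c2, Slc40a1, Cd5l, Malat1, Pax5 and other genes named beside them were chosen after their values were seen.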

Additional observations from a re-analysis of the deposited data

How the results depend on the processing

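No paired analysis was possible because each genotype has 1 library. Each sum was recomputed under 12 alternatives set in advance and 1 added after the data were seen, and moved values (log2 DKO over WT) are given where they left the counting interval. With only barcodes above the UMI threshold the sum was -0.45 in mature B-like, -0.16 in plasmacytoid dendritic-like, -0.33 in macrophage-like and 0.63 in Ly6C-high monocyte-like cells. Without doublet removal it was 0.31 in small pre-B or immature B-like, 0.09 in macrophage-like and 0.25 in Ly6C-high monocyte-like cells. At Leiden resolution 1.0 it was -0.27 in mature B-like, -0.49 in small pre-B or immature B-like, 0.76 in macrophage-like and -0.12 in Ly6C-high monocyte-like cells, and no conventional dendritic-like class was found. At resolution 3.0 it was 0.11 in small pre-B or immature B-like and -0.34 in conventional dendritic-like cells. Median-of-ratios scaling gave -0.42 in mature B-like, -0.70 in conventional dendritic-like, -0.42 in plasmacytoid dendritic-like and 0.48 in Ly6C-high monocyte-like cells. The mean of per-cell CPM gave -0.26, -0.43 and 0.67 in mature B-like, conventional dendritic-like and Ly6C-high monocyte-like cells. Subtracting free RNA gave -0.49 in plasmacytoid dendritic-like and 0.75 in Ly6C-high monocyte-like cells. Weighting clusters by WT cells gave -0.35 in mature B-like and 0.29 in Ly6C-high monocyte-like cells. Thinning gave -0.24, 0.33, -0.44, 0.42 and 0.80 in mature B-like, small pre-B or immature B-like, conventional dendritic-like, macrophage-like and Ly6C-high monocyte-like cells. At resolution 1.0 called members turned over, H2-Eb1 in small pre-B or immature B-like cells to -0.80, and H2-Aa, H2-Ab1 and Cd74 in Ly6C-high monocyte-like cells to -0.15, -0.06 and -0.07. Cd74 there was -0.16 with clusters weighted by WT cells. The sums of the mature B-like and both dendritic classes kept their sign in every alternative that gave a value, and 25 of 42 single member ratios did. The causes of these moves were not tested.

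Free RNA could not be subtracted in macrophage-like cells, where hemoglobin exceeded its share of free RNA, and the UMI threshold left too few small pre-B or immature B-like cells. Leaving out the macrophage-like cluster rich in hemoglobin gave 0.23 for that class. With 1 library per genotype, differences between mice, between genotypes and between library preparations cannot be told apart.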

Other observations

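H2-Oa, a chain of the inhibitor of H2-DM, was counted in basophil or mast-like cells at 85.6 CPM in the WT (86 UMIs) and 93.8 CPM in the DKO library (75 UMIs), next to 172 and 127 CPM in mature B-like cells. H2-Aa in the same basophil or mast-like cells had 8.95 and 36.3 CPM, and H2-Ob had 26.9 and 32.5 CPM. In plasmacytoid dendritic-like cells H2-Oa (72.6 and 45.8 CPM) was likewise counted, with H2-Ob at 7.94 and 9.50 CPM. Pro-B or large pre-B-like cells had 14.9 and 10.5 CPM of H2-Oa and 46.2 and 34.5 CPM of H2-Ob. H2-Eb2 was found in mature B-like cells (57.6 and 72.1 CPM) and at under 10 CPM in both dendritic classes, the macrophage-like class and plasma cell-like cells.

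Stromal-like cells had 755 CPM of the 7 members in the WT and 882 CPM in the DKO library, and droplets of free RNA alone had 853 CPM. In the WT library 4 of 254 of these cells held 35.9% of the member UMIs of the class. In T cell-like cells, 3 of 499 WT cells held 46.2% of the member UMIs, with mature B markers at 1945 CPM in them and at 94.6 CPM in the others, and no DKO cell of that class reached 1%.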
